A study of Mus musculus with 12 samples.

Results

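The epithelial tumor cell markers are 6 genes whose products sit on or just inside the membrane of epithelial cells: Epcam, Cdh1, Muc1, Egfr, Erbb2 and Cd24a. They are a fixed list of symbols, and no threshold on a measured value enters the choice. Of these, 5 are among the 750 genes of the table of normalized counts, and Cd24a is not analysed here. All 5 passed the filter on low values, which asked for a normalized count of 20 or more in 3 or more of the tumors and left 689 genes.

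The tumors were K14-Cre;Brca1f/f;Trp53f/f, where Cre driven by the keratin 14 promoter removes Brca1 and Trp53 from epithelial cells. They were transplanted into a mammary fat pad of female FVB/129P2 mice, which are syngeneic to them. Treatment began at a volume of 150 to 300 mm3 and tumors were taken at 3 days. The 4 groups of 3 tumors received vehicle (intraperitoneal DMSO in saline and intratumoral saline), the STING agonist ADU-S100 (50 μg in 40 μl, injected once into the tumor, with intraperitoneal DMSO), the PARP inhibitor olaparib (50 mg/kg daily, intraperitoneal, with intratumoral saline) or the combination of olaparib and ADU-S100. Every tumor, vehicle included, therefore carried both deletions and received an injection. RNA (100 ng) from a frozen chunk of each tumor was counted on the nCounter mouse immune panel, in which color-coded probes are counted one by one without amplification.

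In a carcinoma transplanted into fat pad, the malignant cells are epithelial, whereas leukocytes, fibroblasts and vessels come mostly from the host. Transcripts made by epithelium and not by host stroma are therefore often read as a rough estimate of the tumor cell share of a bulk sample, and Ptprc, which encodes the pan-leukocyte protein CD45, as the opposite reading. In bulk RNA, fewer cells of a type and less RNA per cell cannot be told apart, and the members are not equally specific: Epcam (an epithelial adhesion molecule) and Cdh1 (E-cadherin, the adherens junction protein) define epithelium, Muc1 encodes an apical mucin of glandular cells, and the receptor tyrosine kinases Egfr and Erbb2 are also made by some stromal cells.

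The recovered counts, which are the probe counts before the authors' scaling, summed to between 106206 and 1519471 per tumor. The olaparib tumor 1517 stood apart, with the lowest total and a scaling factor of 10.48, against 0.589 to 2.848 in the other 11 tumors. Lcn2, made by epithelium and also by neutrophils, is the most abundant transcript of the table. In 1517 it made up 1.18% of the normalized counts, against 11.0% to 25.9% elsewhere. Tumor 1517 also had the most endothelial and fat signal: the 7 measured endothelial genes summed to 30631 there and to 773 to 11507 in the other tumors, and the 2 measured fat genes to 19555 and to 55.4 to 4082. Pecam1, an endothelial adhesion molecule, was at 8625 and Cd36, a fatty acid carrier of adipocytes and capillaries, at 19104 in that tumor. The part of this tissue in its member values was not tested. The lowest count behind any member value was 58 (Muc1 in the ADU-S100 tumor 1512), and Ptprc in 1517 rested on 37 counts. Member fold changes and ratios that rest on 1517 are given with and without it. SDs and the genes most like each member are given over all tumors only. The labels name tumors and do not say whether each came from its own donor tumor, so p-values measure the spread between these tumors.

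The promoter sequences of 3 members are shown because Egfr and Erbb2 had the highest correlation of any pair of members, with and without 1517. Epcam is shown beside them as a member that defines epithelium. The sources used here hold no promoter sequence of Cdh1, the other such member, so it was not searched. Each is the 250 bases before the RefSeq start of the gene (build GRCm38.p6, plus strand, 5′ to 3′), at chr17:87635729-87635978 for Epcam, chr11:16751953-16752202 for Egfr and chr11:98412234-98412483 for Erbb2. Capitals mark CACCTG or its reverse complement CAGGTG, the E-box read by repressors of epithelial genes such as the Snail and Zeb factors.
Epcam: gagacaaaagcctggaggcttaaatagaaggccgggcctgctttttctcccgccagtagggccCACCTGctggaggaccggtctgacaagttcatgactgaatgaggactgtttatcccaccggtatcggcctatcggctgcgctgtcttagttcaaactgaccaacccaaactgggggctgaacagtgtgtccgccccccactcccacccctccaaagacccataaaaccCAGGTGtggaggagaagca
Egfr: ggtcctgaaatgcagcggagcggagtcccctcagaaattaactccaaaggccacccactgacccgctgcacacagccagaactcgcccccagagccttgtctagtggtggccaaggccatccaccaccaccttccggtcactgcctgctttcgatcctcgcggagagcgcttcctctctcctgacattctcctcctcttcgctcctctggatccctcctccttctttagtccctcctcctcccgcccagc
Erbb2: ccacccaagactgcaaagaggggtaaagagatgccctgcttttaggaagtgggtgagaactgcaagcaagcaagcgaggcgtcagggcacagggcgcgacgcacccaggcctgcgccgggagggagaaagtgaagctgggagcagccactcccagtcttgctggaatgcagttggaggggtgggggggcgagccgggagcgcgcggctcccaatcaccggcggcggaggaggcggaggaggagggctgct

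The Epcam window holds 2 matches, 1 on each strand, starting 187 and 19 bases before the gene start. The Muc1 window (chr3:89228806-89229055) also holds 2, both on the plus strand, and the Egfr and Erbb2 windows hold 0. Among 32851 RefSeq promoters of the same length, 17.2% hold at least 1 match on either strand. GC content was 56.4% for Epcam, 54.8% for Muc1, 60.8% for Egfr and 66.0% for Erbb2. A match describes these letters only.

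No member changed with treatment at an adjusted p below 0.05. Cdh1 was the steadiest of the 5 and Muc1 the most variable. In each of the 6 comparisons (5 pairs of groups and the interaction), limma with Benjamini-Hochberg adjustment over 689 genes called 0 of the 5 members, where the background was 0% of all genes in each. At an unadjusted p below 0.05, 1 member passed in 1 comparison, Muc1 in olaparib against vehicle, where 7.26% of all genes did. The corresponding background was 7.69% for the combination against vehicle, 4.79% for ADU-S100 against vehicle, 9.14% for the combination against ADU-S100, 7.26% for the combination against olaparib and 10.9% for the interaction, with 0 members in each. The median log2 fold change over the 5 members was 0.06 in the combination, 0.23 with ADU-S100 and 0.55 with olaparib against vehicle, beside medians over all genes of 0.21, 0.44 and 0.45. Single tumors moved these medians: without the vehicle tumor 1536 the members had -0.13, -0.06 and 0.17, and without 1269 they had 0.34, 0.50 and 0.66. With olaparib the median of the members was 0.42 without 1517 and 1.12 without 1521, beside 0.08 and 0.81 over all genes. These 3 comparisons share the vehicle tumors. Groups that did not overlap were found for 0 of 5 members in the combination against vehicle (all genes 18.4% higher and 1.60% lower), ADU-S100 against vehicle (13.9% and 1.02%), olaparib against vehicle (3.77% and 1.02%) and the combination against olaparib (11.0% and 1.74%). Between the combination and ADU-S100, 2 members did not overlap, Epcam, which was higher (10.4% of all genes), and Egfr, which was lower (20.9%). The scaling factors of those groups did not overlap either, at 0.81 to 0.82 in the combination and 1.43 to 2.85 with ADU-S100.

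**Figure D1:**
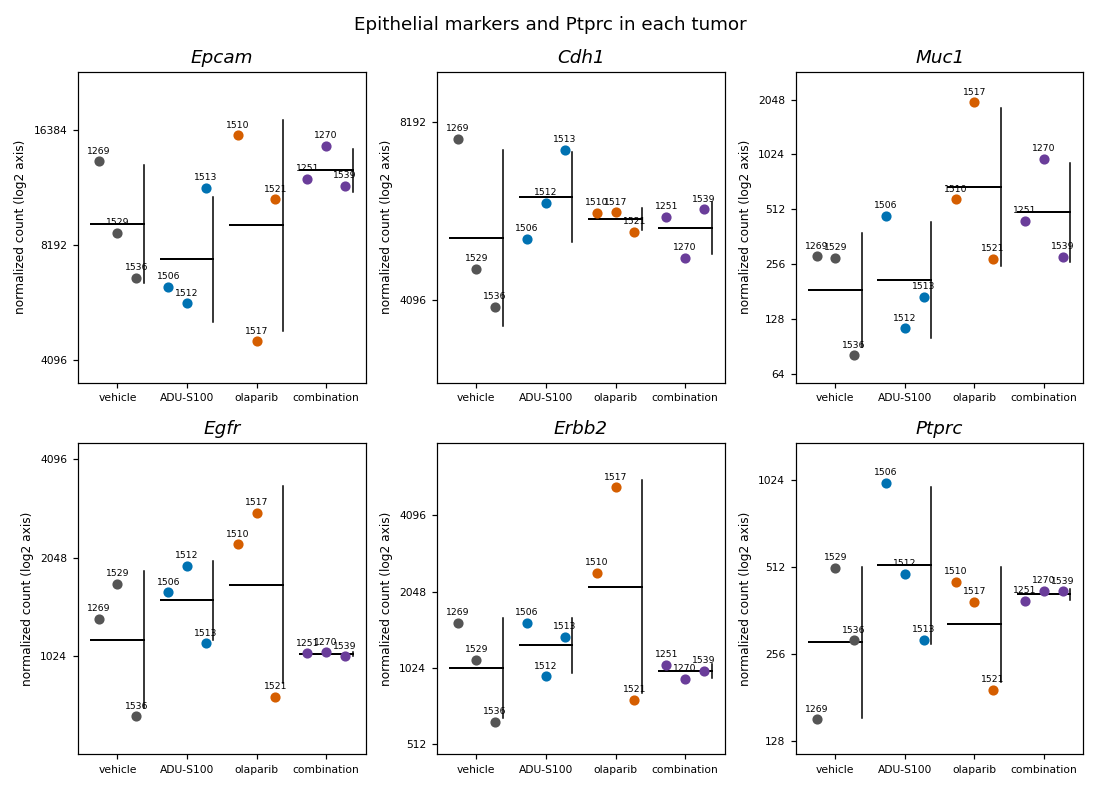
Normalized counts of the 5 members and Ptprc in each tumor (points, labelled with the tumor number, log2 axis) by treatment group. Horizontal lines are group means and vertical lines 1 SD of the log2 values, with 3 tumors per group. The 3 combination tumors sit close together for Egfr, between 1025 and 1054, and the olaparib tumor 1517 has the highest Muc1, Egfr and Erbb2 and the lowest Epcam.

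Epcam, the marker closest to a pan-epithelial label, had normalized counts of 13538, 8799.8 and 6724 in the vehicle tumors 1269, 1529 and 1536. With ADU-S100, tumors 1506, 1512 and 1513 had 6355, 5759 and 11541. The olaparib tumors 1510, 1517 and 1521 had 15843, 4579.5 and 10766, and the combination tumors 1251, 1270 and 1539 had 12183, 14887 and 11669. All 3 combination tumors, which also had lower scaling factors than all 3 ADU-S100 tumors, were above them, the closest pair being 11669 and 11541. The difference was 0.77 on the log2 scale (SE 0.51, adjusted p = 0.605 by limma), with a 95% confidence interval from -0.34 to 1.89. Against vehicle, the log2 fold change was 0.47 (SE 0.51) in the combination and -0.31 (SE 0.51) with ADU-S100, and both groups overlapped vehicle. With 1 tumor left out, the first ranged from 0.23 (without 1536) to 0.74 (without 1269), and the second from -0.62 (without 1513) to -0.04 (without 1269). Adding the log2 scaling factor as a covariate turned the value for ADU-S100 to 0.08. Against olaparib, the combination was higher by 0.48 on the log2 scale (SE 0.51, adjusted p = 0.750), and the value was -0.02 without tumor 1517 and 0.87 without 1510. The interaction was 0.79 (SE 0.72, adjusted p = 0.615), and it was 0.28 without 1517 and -0.10 with the log2 factor as a covariate.

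Cdh1 ranged from 3997 to 7677 over the 12 tumors, a span of 1.92-fold. Values were 7677, 4624 and 3997 with vehicle, 5204, 5988 and 7352 with ADU-S100, 5753, 5764 and 5344 with olaparib, and 5669.8, 4836 and 5830.2 with the combination. The vehicle tumors thus held both the highest and the lowest value, and the other 3 groups lay inside them. The SD over tumors was 0.26 on the log2 scale, and 3.19% of the 689 genes varied less. In the shallow tumor 1517 it was 5764, where its neighbors in the group had 5753 and 5344. Against vehicle, the log2 fold change was 0.06 in the combination, 0.23 with ADU-S100 and 0.11 with olaparib (SE 0.36 each). The 95% confidence intervals ran from -0.72 to 0.84, from -0.55 to 1.01 and from -0.68 to 0.89, so that changes within those limits were not resolved. Without the vehicle tumor 1269 the 3 values were 0.34, 0.51 and 0.39, and without 1536 they were -0.13, 0.04 and -0.09. Scaling each tumor to the same median turned these values to -0.15, -0.18 and -0.24, a shift shared by all genes: relative to the median of all genes, Cdh1 was at -0.16, -0.21 and -0.34 before and at -0.17, -0.22 and -0.34 after it.

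Muc1 covered a 24.4-fold span, from 81.0 to 1981 (to 970.3, or 12.0-fold, without 1517), and its SD of 1.27 on the log2 scale exceeded that of 85.6% of genes. The vehicle tumors had 284, 278 and 81.0, the ADU-S100 tumors 473, 114 and 170, the olaparib tumors 581, 1981 and 275, and the combination tumors 442, 970.3 and 280.4. The highest 3 values were those of the olaparib tumors 1517 and 1510 and the combination tumor 1270, whereas 1521 and 1539 were level with the vehicle tumors 1269 and 1529. Against vehicle, Muc1 was higher by 1.87 on the log2 scale with olaparib (SE 0.83, unadjusted p = 0.0446, adjusted p = 0.582 by limma) and by 1.40 in the combination (SE 0.83, adjusted p = 0.706), the latter 0.81 without the vehicle tumor 1536 and 0.92 without 1270. The value for olaparib was 1.1 without 1517, 2.52 without 1521 and 0.86 with the log2 factor as a covariate. The combination exceeded ADU-S100 by 1.23 (SE 0.83, adjusted p = 0.606), by 0.75 without 1270, by 0.80 without 1512 and by 2.18 with the covariate. In the tumors numbered from 15 (the 15 series, with 1 combination tumor) the difference was 0.42. Outside this series were the combination tumors 1251 and 1270 and the vehicle tumor 1269, and no ADU-S100 or olaparib tumor.

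Egfr, the receptor for epidermal growth factor, had 1332, 1705 and 673 in the vehicle tumors, 1606, 1929 and 1123 with ADU-S100, 2244 and 2798 in the olaparib tumors 1510 and 1517, and 771 in the olaparib tumor 1521. The combination tumors had 1045, 1054 and 1025, an SD of 0.02 on the log2 scale, and 0.581% of genes varied less in that group. They were all below the ADU-S100 tumors. The difference was -0.54 (SE 0.53, adjusted p = 0.693), with an interval from -1.70 to 0.62, and it was 0.05 with the log2 factor as a covariate. Against vehicle, the log2 fold change with olaparib was 0.55 (SE 0.53, adjusted p = 0.707). With 1 tumor left out it was 0.17 without 1536, 0.19 without 1517, 0.35 without 1510, 0.84 without 1529 and 1.12 without 1521. The combination against olaparib gave -0.70 (SE 0.53, adjusted p = 0.664), with -0.34 without 1517 and -1.27 without 1521. The narrow combination group is shared by the panel, whose median SD was 0.28 in the combination, 0.62 with vehicle, 0.64 with ADU-S100 and 1.08 with olaparib.

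Erbb2, the partner receptor of the family whose low level is part of the triple negative label of these tumors, had 1542, 1103 and 626 with vehicle and 1544, 947 and 1353 with ADU-S100. The olaparib tumors had 2431, 5292 and 766, and the combination tumors 1053, 927 and 993. Esr1 and Pgr, the other receptors of that label, are not analysed here. The groups overlapped in every pair. Olaparib against vehicle gave 1.07 (SE 0.62, adjusted p = 0.582), and the combination against olaparib gave -1.11 (SE 0.62, adjusted p = 0.605). Both values turned on 2 olaparib tumors. Without 1521, which has the lowest Erbb2 of its group, they were 1.81 (adjusted p = 0.0487) and -1.86 (adjusted p = 0.0424), in a fit that called 7.98% and 7.84% of all genes. Without 1517, they were 0.42 (adjusted p = 0.938) and -0.46 (adjusted p = 0.854), and with the log2 factor as a covariate 0.26 and -0.24. The interaction was -1.41 (SE 0.88, adjusted p = 0.451), which was -0.76 without 1517, -2.15 (adjusted p = 0.0537) without 1521 and 0.16 with the log2 factor as a covariate.

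**Figure D2:**
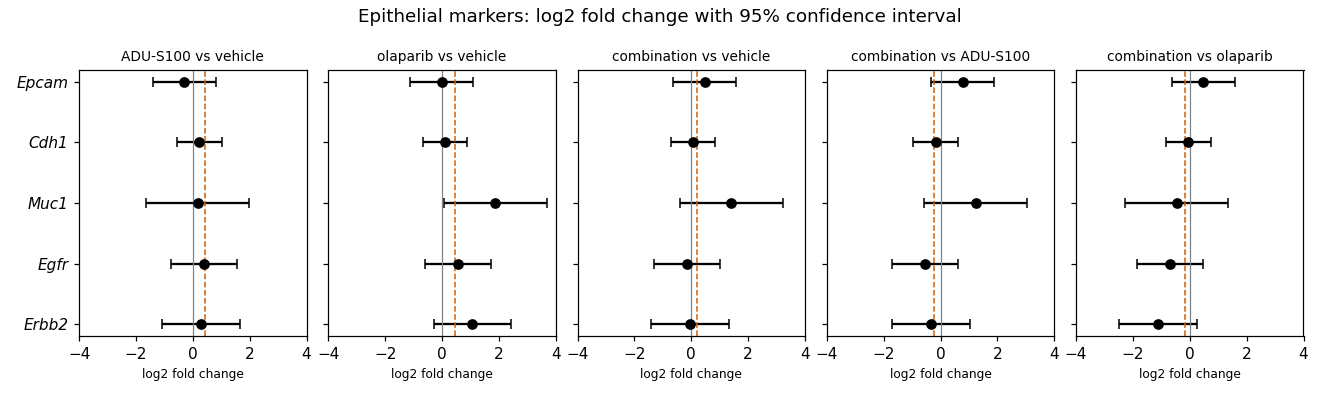
Log2 fold change of each member (points) with its 95% confidence interval (bars) from the limma model over 12 tumors, in 5 comparisons. The dashed line is the median of all 689 genes. The interval of Muc1 in olaparib against vehicle, from 0.05 to 3.68, is the only one of the 25 that leaves out 0, at an adjusted p of 0.582.

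Trp53, which the model deletes in the tumor cells, ranged from 289 in the olaparib tumor 1521 to 3930 in 1517. The position of its probe relative to the deleted exons is not given in the sources used here, and host cells carry the intact gene, so its level checks no label.

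Ptprc was then set against the members as the leukocyte reading. Its normalized counts were 152, 509.9 and 285 with vehicle, 1003, 485 and 287 with ADU-S100, 456, 388 and 193 with olaparib, and 390.5, 423 and 422 with the combination. The groups overlapped, and the log2 fold change against vehicle was 0.88 (SE 0.57, adjusted p = 0.809) with ADU-S100 and 0.55 (SE 0.57, adjusted p = 0.962) in the combination. Both moved with single tumors: the first was 0.44 without the vehicle tumor 1269, 0.41 without 1506 and 1.31 without 1529, and the second 0.11 without 1269 and 0.98 without 1529. Of the 7 leukocyte genes measured, 6 were above vehicle and 1 below it in the combination, 7 were higher with ADU-S100, and 5 were higher and 2 lower with olaparib, with 0 past the threshold. Of all 689 genes, 450, 539 and 514 were higher in these comparisons. Without 1269 the leukocyte genes were 4 higher and 3 lower in the first and second and 2 higher and 5 lower with olaparib, which had 3 higher and 4 lower without 1517. Their summed normalized count ranged from 1576 to 3009 with vehicle, 1759 to 4683 with ADU-S100, 2056 to 2976 with olaparib and 2826 to 3132 with the combination.

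A ratio within a tumor does not depend on its scaling factor, so each member was also divided by Ptprc. The Epcam ratio was 89.0, 17.3 and 23.6 in the vehicle tumors, 6.34, 11.9 and 40.2 with ADU-S100, 34.8, 11.8 and 55.9 with olaparib, and 31.2, 35.2 and 27.6 with the combination. The highest ratio was that of the vehicle tumor 1269, which had the lowest Ptprc of all tumors, and the lowest that of the ADU-S100 tumor 1506, which had the highest. On the log2 scale the Epcam ratio differed by -1.19 (SE 0.78, adjusted p = 0.780) between ADU-S100 and vehicle, and by 1.11 (SE 0.78, adjusted p = 0.614) between the combination and ADU-S100. The first of these was -0.48 without 1269 (as in the 15 series), -0.60 without 1506 and -1.93 without 1513, and the second 0.51 without 1506 and 1.85 without 1513.

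Muc1 over Ptprc was 1.87, 0.545 and 0.284 with vehicle, 0.472, 0.235 and 0.592 with ADU-S100, 1.27, 5.11 and 1.43 with olaparib, and 1.13, 2.29 and 0.664 with the combination. All combination tumors were above all ADU-S100 tumors, as they were for 15.8% of all genes. That difference was 1.57 on the log2 scale (SE 0.76, adjusted p = 0.493) and 0.72 in the 15 series, and olaparib exceeded vehicle by 1.66 (SE 0.76, unadjusted p = 0.0437, adjusted p = 0.754), or by 1.02 without 1517 and 1.06 without 1536. At an unadjusted p below 0.05, 5.52% of genes passed in olaparib against vehicle. The other comparisons held 0 members at that p, with backgrounds of 5.38% for the combination and 3.05% for ADU-S100 against vehicle, 10.5% and 13.8% for the combination against ADU-S100 and against olaparib, and 8.43% for the interaction.

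Both kinase receptors had lower ratios in the combination than with olaparib. Egfr over Ptprc was 2.68, 2.49 and 2.43 in the combination tumors against 4.92, 7.22 and 4.0 in the olaparib tumors, and Erbb2 over Ptprc was 2.70, 2.19 and 2.35 against 5.33, 13.6 and 3.98. Neither overlapped, in a direction in which 22.8% of all genes did not. The log2 differences were -1.04 for Egfr (SE 0.60, adjusted p = 0.432) and -1.46 for Erbb2 (SE 0.70, adjusted p = 0.367), and -0.81 and -0.94 without 1517. In the ratio to Ptprc, 0 of 5 members passed the adjusted threshold in any comparison, against a background of 0.291% for the combination against ADU-S100 and 0% for the other 5. Ratios of 0 members were apart in the combination against vehicle (all genes 3.49% higher and 17.4% lower), ADU-S100 against vehicle (2.62% and 7.70%) and olaparib against vehicle (3.34% and 1.02%). None was higher in the combination than with olaparib (2.47%) or lower than with ADU-S100 (12.2%) without overlap.

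**Figure D3:**
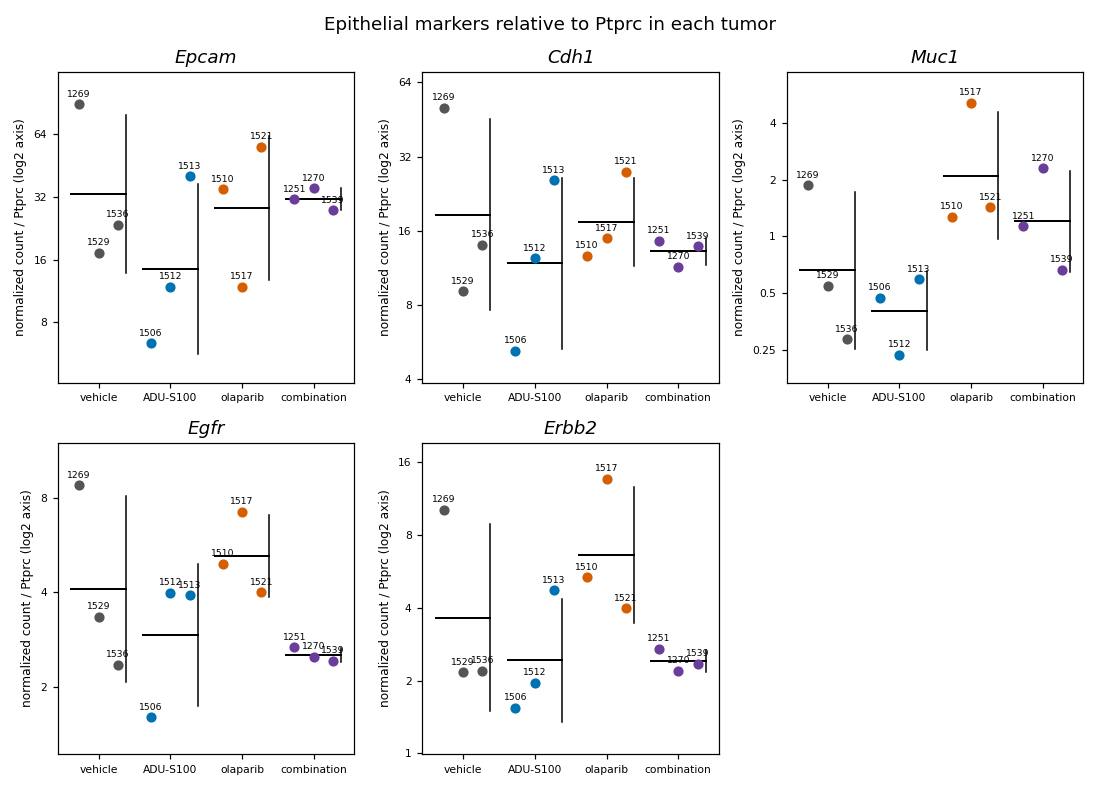
Normalized count of each member divided by that of Ptprc in the same tumor (points, log2 axis) by treatment group, with the mean and 1 SD of the log2 ratios. The combination tumors lie between 2.43 and 2.68 for Egfr and between 2.19 and 2.70 for Erbb2, below all 3 olaparib tumors in both panels.

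The next question was whether tumors with more of a member had less Ptprc. Over the 12 tumors, Pearson's r with Ptprc was -0.34 for Epcam (Spearman's rho -0.16) and -0.37 for Cdh1 (rho -0.29). It was 0.24 for Muc1 (rho 0.24), 0.44 for Egfr (rho 0.49) and 0.17 for Erbb2 (rho 0.22). In permutation tests with 100000 resamples, the adjusted p over 688 genes was 0.422 for Epcam, 0.391 for Cdh1, 0.569 for Muc1, 0.293 for Egfr and 0.685 for Erbb2, from unadjusted values of 0.278, 0.240, 0.448, 0.152 and 0.585. For rho the adjusted values were 0.726, 0.512, 0.593, 0.273 and 0.615. None of the 5 passed in either direction, against a background of 7.41% with a positive and 0% with a negative correlation. The median r of all genes with Ptprc was 0.44, and 14.4% of genes, Epcam and Cdh1 among them, had an r below 0. Without the tumors 1269 and 1506, which are farthest from the median Ptprc, r was -0.03 for Epcam and -0.003 for Cdh1, so that the negative values rested on those 2 tumors, while Egfr had 0.64. Within the 9 tumors of the 15 series, r was -0.27, -0.06, 0.27, 0.56 and 0.29 for Epcam, Cdh1, Muc1, Egfr and Erbb2. The 12 series has 3 tumors, too few for a value. Under a common median the sign turned for all members but Cdh1, and Erbb2 reached -0.62 (adjusted p = 0.470).

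Members did not vary as one. Over the 12 tumors, which share the scaling step and the depth differences named above, the 10 pairs of members had a median r of 0.27, beside 0.30 for all 237016 gene pairs. The highest was Egfr with Erbb2, at 0.82 (rho 0.78), which is above 94.4% of all pairs and was 0.76 without 1517. Muc1 with Erbb2 had 0.72 (0.47 without 1517) and Muc1 with Egfr 0.52 (0.26 without 1517). The 2 defining epithelial genes, Epcam and Cdh1, had 0.28 (0.37 without 1517). The other pairs of Epcam moved with that tumor: Epcam with Egfr had -0.33 and without it -0.03, Epcam with Erbb2 -0.24 and 0.40, and Epcam with Muc1 0.05 and 0.63.

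The normalized count of a gene is its count times the scaling factor of the tumor, and the members differed in how they followed that factor. The relation was computed after the values had been seen, in 689 genes. Egfr had r = 0.85 with the log2 factor over the 12 tumors (rho 0.83, permutation p = 0.00029, adjusted p = 0.00178, and 0.00835 for rho) and Erbb2 r = 0.84 (rho 0.62, permutation p = 0.00269, adjusted p = 0.00886), where 47.0% of all genes passed in this direction. The call for Erbb2 was lost by rank (adjusted permutation p = 0.0798 for rho). Without 1517 and 1506, the tumors farthest from the median factor, r was 0.85 for Egfr (adjusted permutation p = 0.0220) and 0.54 for Erbb2 (adjusted permutation p = 0.263). Epcam went the other way, with r = -0.64 (rho -0.45, permutation p = 0.0186, adjusted p = 0.0388), where 4.21% of all genes passed. This call too was lost by rank (adjusted permutation p = 0.228 for rho) and without those 2 tumors (r = -0.18, adjusted permutation p = 0.776), on which it rested. Muc1 had 0.54 (adjusted p = 0.123 by permutation) and Cdh1 0.08 (adjusted p = 0.852 by permutation). Without 1517 and 1506 these were -0.06 and 0.16. Normalized Epcam was 4.12 to 16.1 times normalized Erbb2 in 11 tumors and 0.865 times in 1517. A change in this ratio from tumor to tumor is a change of one gene relative to the other, whatever the scaling.

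**Figure D4:**
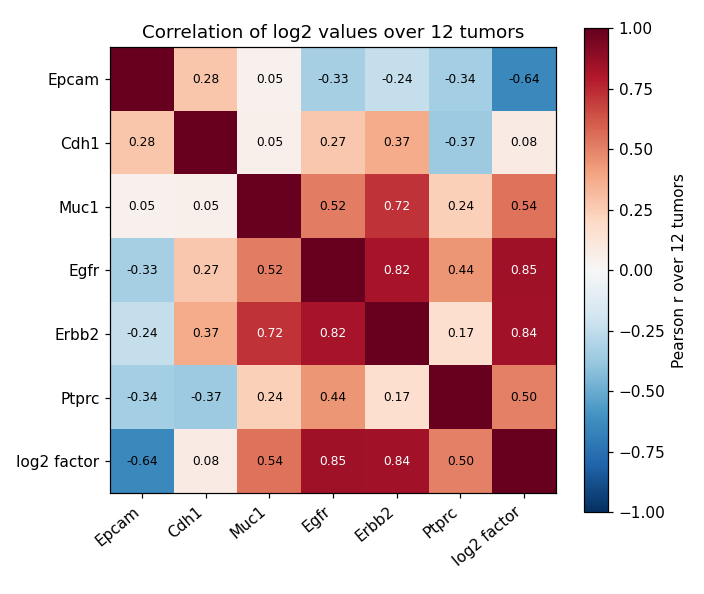
Pearson's r over 12 tumors between the log2 normalized counts of the 5 members and Ptprc and the log2 scaling factor. Egfr and Erbb2 are tied to each other (0.82) and to the factor (0.85 and 0.84), while Epcam has -0.64 with the factor and Cdh1 0.08.

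**Figure D5:**
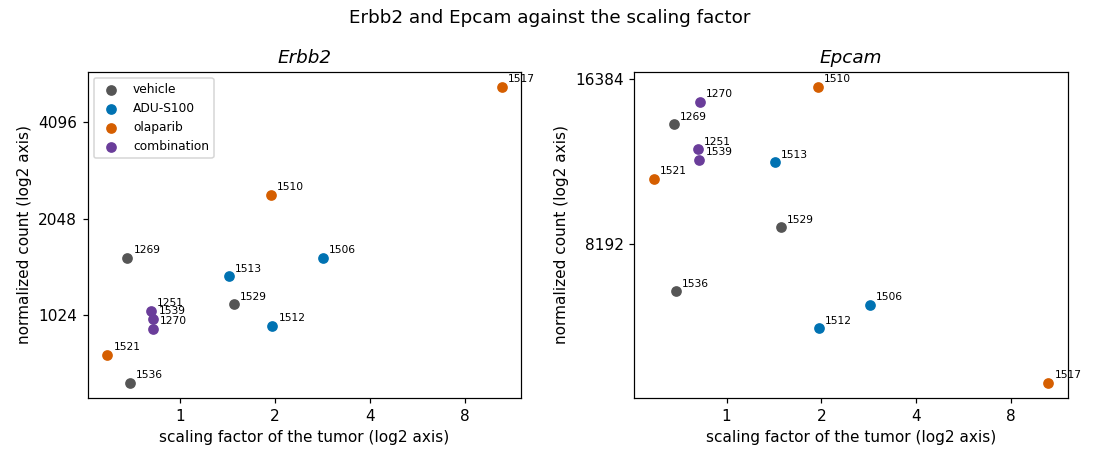
Normalized counts of Erbb2 and Epcam (vertical, log2 axis) against the scaling factor of the tumor (horizontal, log2 axis), each point a tumor colored by treatment group. Tumor 1517, at a factor of 10.48, has the highest Erbb2 (5292) and the lowest Epcam (4579.5) of the 12.

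Each member had other genes that followed it more closely than any fellow member did. The 3 with the highest r over the 12 tumors were Yy1 (0.89), Tnfaip3 (0.89) and Cd81 (0.87) for Epcam. For Cdh1 they were Vegfa (0.83), Map2k1 (0.78) and Aire (0.73), and for Muc1 Ltf (0.90), C2 (0.89) and Cyld (0.89). Egfr was followed by Ccl25 (0.91), Notch1 (0.90) and Tfeb (0.90), and Erbb2 by Fos (0.96), Pnma1 (0.96) and Stat6 (0.94). These are the largest of 688 values each and are given as a description.

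Of 33 other epithelial genes listed, such as keratins and claudins, 6 were measured: Ceacam1, Itga6, Itgb4, Lcn2, Ltf and Kit. Against vehicle, 4 were higher and 2 lower in the combination, 3 and 3 with ADU-S100, and 2 and 4 with olaparib, with 0 past the threshold in any. These splits did not hold with single tumors left out: 3 and 3 for the combination without 1536, 6 and 0 for ADU-S100 without 1269 or 1512 and 2 and 4 without 1513, and 3 and 3 for olaparib without 1517 or 1269. The furthest from 0 in the combination did not pass: the log2 fold change was 0.97 (SE 0.61, adjusted p = 0.767) for Ltf, the milk protein lactoferrin, and 0.76 (SE 0.71, adjusted p = 0.949) for Kit, a receptor of luminal progenitor cells. Without the vehicle tumor 1536 they were 0.41 and -0.01. Of the ErbB signaling list, which names MAP kinases and phosphoinositide 3-kinases and is not restricted to forms made by epithelium, 13 genes were measured. In the combination, 8 were higher and 5 lower than in vehicle and 0 passed, beside 450 higher and 239 lower of all 689 genes. The split was 10 and 3 without 1529 and 7 and 6 without 1536. The furthest from 0 were Pik3cg (0.91, SE 0.60, and 0.55 without 1269) and Jun (0.53, SE 0.59, and 0.81 without 1269). Of the lymphocyte and vessel molecules that bind the members, 3 were measured. Icam1, a ligand of leukocyte integrins that also binds Muc1, had 0.80 (SE 0.56, adjusted p = 0.835), Itgae, the integrin subunit by which T cells hold Cdh1, had 0.54 (SE 0.91, adjusted p = 0.989), and Klrg1, an inhibitory receptor for cadherins, had 0.0016 (SE 0.72, adjusted p = 0.999). Without the vehicle tumor 1536 the 3 values were 0.40, 0.00072 and -0.18, and without 1529 they were 0.9997, 0.996 and 0.57.

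Markers of host stroma were set beside these epithelial values, and 0 passed the test. All 7 measured stromal genes and all 7 endothelial genes were below vehicle in the combination, with median log2 fold changes of -1.14 and -0.84 and 0 past the threshold. The endothelial value rested on the vehicle tumor 1529: without it 2 genes were higher and 5 lower, with a median of -0.04. All 7 stromal genes remained lower without it, with a median of -0.76. With olaparib, 7 of 7 stromal genes were lower (median -1.40), and 6 of 7 without 1529 (median -0.96) or without 1521 (median -1.48). With ADU-S100, 5 of 7 were lower (median -0.38), which was 2 of 7 (median 0.16) without 1529. At an unadjusted p below 0.05 by limma there were 4 stromal genes with olaparib (7.26% of all genes), 1 in the combination (7.69%) and 0 with ADU-S100 (4.79%). The summed stromal count ranged from 18395 to 94232 with vehicle, 36733 to 60604 with ADU-S100, 7209 to 30935 with olaparib and 15526 to 30038 with the combination. The summed endothelial count ranged from 1645 to 11507, 2047 to 10046, 773 to 30631 and 1766 to 2396 in the same order, and the fat count from 82.5 to 3648, 273 to 4082, 55.4 to 19555 and 144 to 611. The part of stroma in the member values was not tested. Of 3 measured genes of the mesenchymal switch (Vim, Snai1 and Twist1), 0 passed in any comparison, and their median was -0.48 in the combination against vehicle, with -1.19 without 1269 and -0.23 without 1529. With ADU-S100 against vehicle, Snai1 had 1.75 (adjusted p = 0.809 by limma), Vim -0.02 and Twist1 -0.42. In the combination against ADU-S100, Snai1 had -2.23 (adjusted p = 0.492 by limma), Vim -0.40 and Twist1 -0.38. The 2 cell cycle genes measured, Birc5 and Cdk1, were both lower in the combination and with olaparib, with medians of -0.81 and -0.84 and 0 past the threshold. With ADU-S100, Birc5 was higher (0.63) and Cdk1 lower (-0.32). Without 1517, where Birc5 rested on 19 counts, the olaparib median was -0.40 and Birc5 itself had -0.05.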

How the data were processed

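The deposited signal is linear: nCounter counts from which the authors, in nSolver, took off background and which they scaled by positive controls and by housekeeping genes (geometric mean), neither of which is analysed here. Scaling on housekeeping genes makes a value depend on a tumor's factor. Each tumor was assigned from its label title. Counts and factors were recovered from the step of which values are multiples, within 0.01 of a count, with values at the floor of 1 set to 0. Per tumor, 99.87% or more were whole. Limma 3.58.1 (R 4.3.3) fitted one mean per group on log2(normalized count + 1) of 689 genes, also for log2 ratios to Ptprc (688 genes), with Benjamini-Hochberg adjustment over all genes and a threshold of 0.05. A fold change on this scale understates that of low genes. Correlations with Ptprc used two-sided permutation tests with 100000 resamples. Scripts were tested on simulated data. No 2 tumors had identical values. The alternatives, edgeR 4.0.16 on the recovered counts among them, are described in the closing section. With the authors' factors edgeR called 0 genes in every comparison, with 41 to 124 at an unadjusted p below 0.05. The 15 series fits, the correlations with the factor and the list values with a tumor left out were added after seeing the data. Named genes were the measured members, Ptprc, Trp53, the 3 genes most like each member, and, for the epithelium, ErbB and counter-receptor lists, the 2 genes with the largest change in the combination against vehicle. Lcn2, Pecam1, Cd36, Birc5, Cdk1, Klrg1, Snai1, Vim and Twist1 were named after their values were seen. Members and lists were chosen with earlier results of these data known. Symbols and promoters are from RefSeq (GRCm38.p6). Figures were drawn with matplotlib.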

Additional observations from a re-analysis of the deposited data

How the results depend on the processing

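The number of members past the adjusted threshold was 0 in all 6 comparisons, in level and in ratio to Ptprc, under a common median, quantile normalization, a filter at 50 or none, a pseudocount of 10, eBayes with an intensity trend, models of the compared groups alone, the t-test of the methods, a block for the number series (12 or 15), the log2 factor as a covariate, edgeR with the authors' factors or with TMM, and the 15 series alone, each where it applies. Leaving out each tumor in turn, the number ranged from 0 to 1 for olaparib against vehicle and for the combination against olaparib, the 1 being Erbb2 without the olaparib tumor 1521, and stayed at 0 elsewhere. Most fits called 0 genes of any kind (249 of 275, counting each comparison and setting), so that 0 members says little there. Without 1521, 12.5% of all genes were called for the interaction, 7.98% and 7.84% for the 2 olaparib comparisons and 5.96% for the ratio in the combination against olaparib. Elsewhere the share was at most 3.63%, for the ratio in the combination against ADU-S100 with the compared groups alone, and at most 0.581% in level. Correlations with Ptprc gave 0 members under every alternative run.

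Directions moved with the scaling and with single tumors. Rescaling moved the median over all genes: for the combination against vehicle it was 0.21 in the reported fit and 0.02, -0.05 and -0.18 with a common median, quantile normalization and edgeR with TMM. Cdh1 relative to it was -0.16 and then -0.17, -0.18 and -0.23. Quantile normalization does not shift all genes alike: relative to the median, Cdh1 went from -0.21 to 0.13 for ADU-S100 and from -0.34 to -0.06 for olaparib against vehicle. Cdh1 in the combination against vehicle turned to -0.056 with the series as a block, -0.15 with a common median, -0.23 with quantile normalization and -0.42 by edgeR with TMM, and ranged from -0.13 (without the vehicle tumor 1536, and -0.03 without 1529) to 0.34 with tumors left out. With ADU-S100 it turned to -0.18 with a common median and -0.34 by edgeR with TMM. With olaparib it turned to -0.24, -0.066 and -0.41 under a common median, quantile normalization and edgeR with TMM, and ranged from -0.085 (without 1536) to 0.39. The log2 factor as a covariate turned Epcam to 0.082 for ADU-S100 against vehicle, -0.016 for the combination against olaparib (from -0.025, without 1517, to 0.87 with tumors left out) and -0.10 for the interaction, Egfr to -0.069 for olaparib against vehicle and 0.047 for the combination against ADU-S100, and Erbb2 to 0.16 for the interaction. In correlation with Ptprc, a common median gave 0.076 for Epcam, -0.43 for Muc1, -0.11 for Egfr and -0.62 for Erbb2, and quantile normalization 0.14 for Epcam, -0.43 for Muc1 and -0.55 for Erbb2. Without its 2 farthest tumors, the correlation of Muc1 with the factor was -0.057. The correlations of Epcam and Erbb2 with the factor lost their calls under Spearman's rho and without those tumors. The cause of these turns and losses was not tested.

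No paired analysis was possible because the tumor numbers differ between the groups. The limit of precision is 3 tumors per group: 95% confidence intervals of the members reach 0.8 to 1.8 on either side of a log2 fold change between 2 groups, and further for the interaction. The 15 series alone holds 1 combination tumor, which is assumed to vary like the other groups. All ADU-S100 and olaparib tumors are in that series, whereas the combination tumors 1251 and 1270 and the vehicle tumor 1269 are not. Comparisons of the combination with either single drug therefore largely compare the number series as well.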
